A study of Mus musculus with 31 samples.

Results

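Dio1, Dio2 and Dio3 encode the 3 iodothyronine deiodinases, and Dio3os is the non-coding transcript made from the opposite strand beside Dio3. These 4 genes were taken by symbol from the 43629 genes of a liver RNA sequencing table covering 31 mouse pups, and all 4 were among the 17057 genes that passed a filter on low counts. Every pup was C57Bl/6J, was killed at postnatal day 14 and carried knockouts of Dio1 and of Dio2 (Dio1KO/Dio2KO), the control pups included. On that background, pups without Pax8 (Dio1KO/Dio2KO/Pax8KO), the transcription factor needed to form the thyroid, received injections on alternate days, the first at postnatal day 2, of both hormones (labelled T4+T3, called T3+T4 here, 7 livers), of T4 (8 livers), of T3 (6 livers) or of vehicle (5 livers). Littermates with a thyroid (Dio1KO/Dio2KO/Pax8Het) received vehicle and are called control (5 livers). The name vehicle stands for the Pax8KO pups given vehicle. The comparison of T4 with vehicle addresses what T4 does in a liver where neither Dio1 nor Dio2 can turn it into T3. Hormone doses, and the parts of Dio1 and Dio2 that were deleted, are not given in the sources used here. Counts were summed over each gene, so reads of Dio1 and Dio2 are residual transcript of knocked-out genes, neither a check of the knockouts nor a measure of enzyme, and no wild-type liver stands beside them.

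The thyroid secretes mainly thyroxine (T4), a prohormone for the nuclear receptors, and the deiodinases, which are selenoenzymes, remove single iodine atoms from it. Dio1 and Dio2 take an iodine from the outer ring, which turns T4 into the receptor ligand T3, while Dio3 takes an iodine from the inner ring and inactivates both hormones. In rodent liver Dio1 is the main deiodinase and a textbook target of T3 and its receptor, Dio2 is known for brown fat, pituitary and brain, and Dio3 is high in fetal tissues and falls around birth. Dio3 lies at one end of the imprinted Dlk1-Dio3 domain, and the function of Dio3os is not settled.

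In mm10 coordinates of GENCODE M21, Dio1 (ENSMUSG00000034785) lies on the minus strand of chromosome 4 from 107291465 to 107307169 and has 1970 exonic bases. Dio2 (ENSMUSG00000007682) lies on the minus strand of chromosome 12 from 90724552 to 90738438, with 5815 exonic bases. Dio3 (ENSMUSG00000075707) is a gene of 1 exon and 2030 bases on the plus strand of chromosome 12, from 110279068 to 110281097. Dio3os is annotated there as a bidirectional promoter lncRNA on the minus strand from 110275385 to 110278172. That annotation holds Dio3os under another ID than the deposited one (ENSMUSG00000097758, with 4 exons listed), so its counted exons are not known here and no level per length is given for it. In M21 the spans of Dio3os and Dio3 are 895 bases apart and share no exon. Whether the counting used the strand is not stated, so reads of Dio3 and Dio3os can be told apart only as far as their counted exons do not overlap.

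The start windows of Dio1, Dio3 and Dio3os are shown because these are the genes whose RNA changed with the hormone state, and because Dio3os and Dio3 are read outward from neighbouring starts, 1161 bases apart in RefSeq. Each window runs 5′ to 3′ on its gene's own strand, from 250 bases before to 50 bases after the RefSeq start in GRCm38.p6, and capitals mark the letters TATAAA. The windows are chr4:107307119-107307418 (minus strand) for Dio1, chr12:110278980-110279279 (plus strand) for Dio3 and chr12:110278019-110278318 (minus strand) for Dio3os.
Dio1: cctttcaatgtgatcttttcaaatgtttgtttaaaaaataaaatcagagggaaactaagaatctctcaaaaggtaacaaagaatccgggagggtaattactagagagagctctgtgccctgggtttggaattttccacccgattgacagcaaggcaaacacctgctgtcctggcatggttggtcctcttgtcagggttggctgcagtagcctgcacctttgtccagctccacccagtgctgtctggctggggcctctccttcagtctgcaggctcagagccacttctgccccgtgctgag
Dio3: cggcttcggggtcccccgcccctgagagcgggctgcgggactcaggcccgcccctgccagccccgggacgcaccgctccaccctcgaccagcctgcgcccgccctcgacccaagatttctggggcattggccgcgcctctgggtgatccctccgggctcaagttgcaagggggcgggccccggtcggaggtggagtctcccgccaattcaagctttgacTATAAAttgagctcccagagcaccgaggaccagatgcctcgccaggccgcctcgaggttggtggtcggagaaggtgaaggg
Dio3os: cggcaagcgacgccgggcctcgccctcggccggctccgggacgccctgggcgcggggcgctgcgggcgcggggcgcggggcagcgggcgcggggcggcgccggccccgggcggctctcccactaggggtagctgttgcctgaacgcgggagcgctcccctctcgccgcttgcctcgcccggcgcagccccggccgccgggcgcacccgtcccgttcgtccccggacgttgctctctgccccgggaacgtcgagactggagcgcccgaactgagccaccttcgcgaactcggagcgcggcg
The sequences differ in base composition. The Dio3os window was 80.0% G or C with 53 CpG pairs, and the Dio3 window was 69.0% G or C with 25 CpG pairs. The Dio1 window was 49.7% G or C with 3 CpG pairs, close to the median of 52.7% over 32851 RefSeq windows of this length, whose median CpG count was 7. The Dio2 window (chr12:90738989-90739288, minus strand) was 44.7% G or C. The hormone receptor half-site AGGTCA, searched on both strands, was found in none of the 4 windows and in 16.3% of all windows. The direct repeat of that half-site with 4 bases between its copies was likewise in none of the 4, and in 5 of all windows (0.0152%). TATAAA on either strand, a motif added after the sequences had been seen, was in the Dio3 and Dio2 windows and in 13.6% of all windows. These matches describe the letters in the windows, not binding.

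Library totals ran from 4383769 to 7158919 deposited counts, and 20954 to 22975 genes per library held more than the 1 that the table gives every gene. The totals averaged 6353684 in T3+T4, 5343109 in T4, 6070280 in T3, 5297107 in vehicle and 5413170 in control livers. Within groups the libraries differed beyond counting noise, with chi-square values of 2.76 to 23.01 per degree of freedom, so none was counted as a repeat of another. The 6 hepatocyte markers summed to 3303 to 4912 CPM (counts-per-million with TMM-scaled totals) over all livers, which matches the label of liver. By group this sum was 3303 to 4205 CPM in T3+T4, 3944 to 4852 in T4, 3470 to 4296 in T3, 4670 to 4912 in vehicle and 4290 to 4797 in control livers, so that all T3+T4 and T3 livers lay below all vehicle livers. Against vehicle 5 of the 6 markers fell in T3+T4 livers (list median -0.24), 2 fell in T3 livers (-0.26) and 0 passed in T4 livers, and between vehicle and control 0 passed (0.04), by edgeR and by DESeq2. At an unadjusted p under 0.05 the last pair of comparisons had 1 and 0 markers. Of all genes, 15.8% were called with T3+T4 against vehicle, 6.77% with T3, 0.410% with T4 and 9.63% in vehicle against control livers. In T3+T4 against T4 livers 8.61% of all genes were called, and 0.551% in T4 against T3 livers. Markers of 2 other tissues were raised in some libraries, unevenly over the groups. The 6 pancreatic acinar markers summed to 3.37 to 132 CPM in T3+T4, 1.76 to 10.8 in T4, 2.52 to 14.5 in T3, 3.50 to 152 in vehicle and 2.94 to 51.5 in control livers, and averaged at least 5 CPM in 3, 0, 0, 2 and 1 livers of these groups. The 5 skeletal muscle markers summed to 1.84 to 76.4 CPM in T3+T4, 1.86 to 207 in T4, 4.82 to 322 in T3, 1.41 to 8.49 in vehicle and 1.28 to 2.71 in control livers, and averaged at least 5 CPM in 2, 4, 3, 0 and 0 livers. By edgeR, 4 of the 5 tested acinar markers fell in T3 against vehicle livers (list median -5.12). All 4 tested muscle markers rose there (4.85). With T4 against vehicle 1 acinar and 0 muscle markers passed (4 and 2 by DESeq2). All 5 tested acinar markers rose in T3+T4 against T4 livers (3.41), and 0 muscle markers passed. For T3+T4 against vehicle, vehicle against control and T4 against T3 livers 0 of either list passed. Results are therefore also given without the libraries raised in these markers, which leaves 3, 4, 3, 3 and 4 livers. Animals are numbered, and all T3 and T3+T4 pups carry numbers from 54 to 85, against 5 T4, 2 vehicle and 1 control pup. What the numbers stand for is not given.

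Dio1 had the largest log2 fold changes of the 4 genes in each of the 7 comparisons in which it passed the test. Residual Dio1 RNA was 13.3-fold lower in vehicle than in control livers, rose 2.71-fold with T4 and more than that with T3 or with both hormones, where no difference from control passed the test. The deposited counts in T3+T4 livers were 690 at the lowest, 1219 at the median and 1504 at the highest. In T4 livers they were 82, 158.5 and 369 in the same order, and in T3 livers 311, 785.5 and 1260. In vehicle livers the 5 counts were 69, 49, 91, 42 and 74, and in control livers they were 805, 840, 1035, 1002 and 776. Every vehicle liver lay below every control, T3 and T3+T4 liver, and every T4 liver lay below every control and T3+T4 liver, also on the CPM scale. The T4 and vehicle livers met, since T4 animal 70 (18.8 CPM) lay just below vehicle animal 55 (19.3 CPM). The T4 and T3 livers met at T4 animal 54 (64.5 CPM) and T3 animal 62 (60.2 CPM).

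Scaled to library size, Dio1 averaged 187 ± 42.7 CPM in T3+T4 (n = 7), 34.3 ± 16.7 in T4 (n = 8), 135 ± 53.2 in T3 (n = 6), 12.7 ± 4.42 in vehicle and 169 ± 31.8 in control livers (SD, n = 5 each). As a share of the control mean these levels were 110.4% in T3+T4, 20.3% in T4, 79.9% in T3 and 7.53% in vehicle livers. In bulk liver, fewer cells of a type and less RNA per cell cannot be told apart, here or in the results that follow. Per length, Dio1 in T3+T4 livers was above 96.9% of 16942 genes, and above 70.2% in T4, 94.4% in T3, 42.9% in vehicle and 95.8% in control livers.

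**Figure D1:**
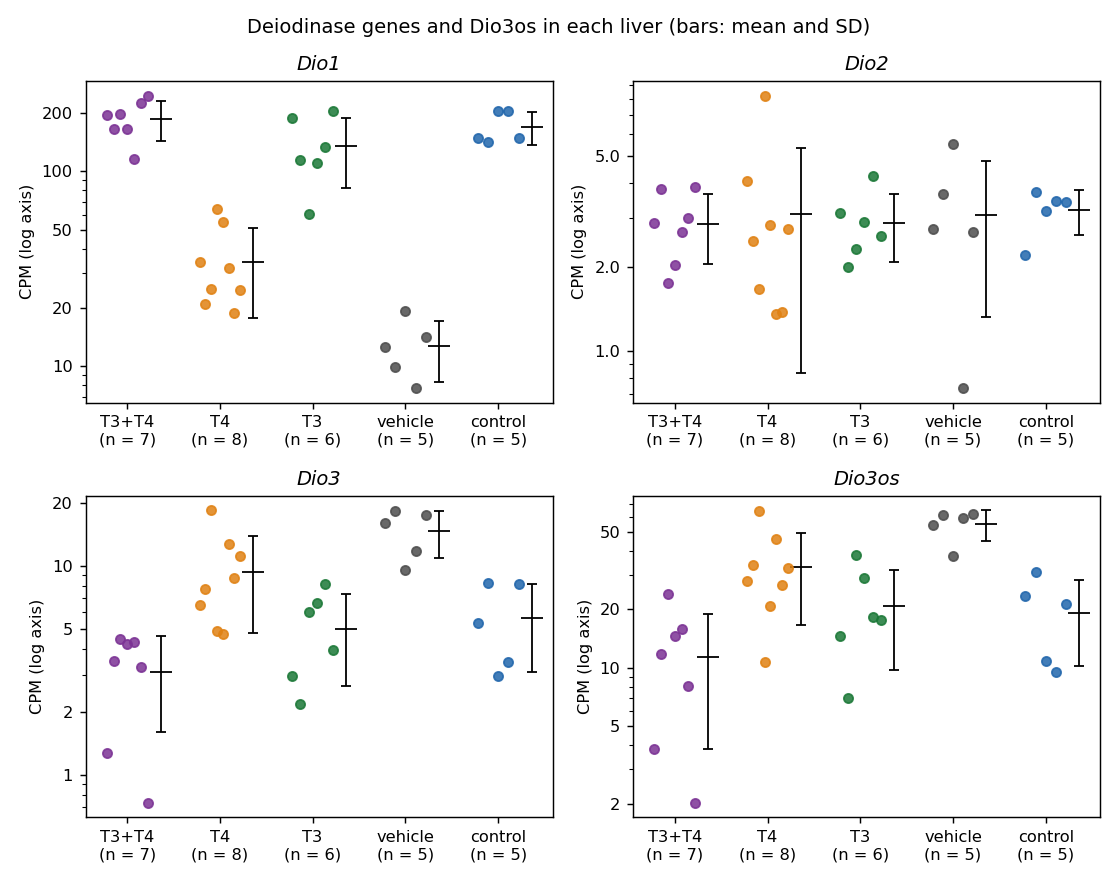
Level of each gene in each liver, in counts-per-million (CPM) on a log axis, for T3+T4, T4, T3, vehicle and control pups; points are livers, and the bars beside them give the mean and SD. Dio1 was lowest in vehicle livers (12.7 ± 4.42 CPM) while Dio3 and Dio3os were highest there (14.6 ± 3.74 and 54.7 ± 9.94 CPM), and Dio2 averaged 2.85 to 3.19 CPM in all 5 groups.

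The loss of the thyroid moved 3 of the 4 genes. In vehicle against control livers, Dio1 fell and Dio3 and Dio3os rose by edgeR's quasi-likelihood test (Benjamini-Hochberg adjusted p under 0.05), in a comparison in which 9.63% of the tested genes passed. Dio1 was 13.3-fold lower in vehicle livers (log2 fold change -3.74 ± 0.34 SE, adjusted p = 3.12e-08), ranking 4 of 17057 genes by p. It kept its call without each library in turn, but not among animals 54 to 85, where 2 vehicle livers faced 1 control liver (-3.49, adjusted p = 0.0913). Counts in the table level off near 2 per exonic base, and Dio1 reached 0.763 in its highest liver. Corrected for such a ceiling, a setting added after seeing the data, the difference was -3.91.

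T4 alone raised 1 of the 4 genes, Dio1, where 0.410% of the genes tested were called between T4 and vehicle livers. Dio1 was 2.71-fold higher in T4 livers (1.44 ± 0.32, adjusted p = 0.041), and 7 of the 8 T4 livers lay above the highest vehicle liver. It had the largest adjusted p among the calls of Dio1. Leaving out any 1 of T4 animals 54, 58 and 69 or of vehicle animals 37, 38, 55 and 67 ended the call (the highest adjusted p was 0.113, and log2 fold changes were 1.25 to 1.63). It was also lost among animals 54 to 85, with 2 vehicle livers (1.56, adjusted p = 0.400), and without the libraries raised in acinar or muscle markers (1.46, adjusted p = 0.534).

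T3 alone moved 3 of the 4 genes against vehicle, beside 6.77% of all genes tested. Dio1 was 10.7-fold higher in T3 livers (3.41 ± 0.33, adjusted p = 1.90e-07, the third smallest p of all genes). It was called in every setting run, leaving out each library included, with log2 fold changes of 3.27 to 3.60. T3+T4 moved the same 3 genes against vehicle, beside 15.8% of all genes. Dio1 was 14.7-fold higher in T3+T4 livers (3.88 ± 0.33, adjusted p = 6.77e-09) and was likewise called in every setting (3.74 to 4.12).

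In the direct contrast of the hormones Dio1 was the 1 member that passed. T4 against T3 livers differed in 0.551% of all genes, and Dio1 had the smallest p of the 17057. It was 3.93-fold lower in T4 livers (-1.97 ± 0.25, adjusted p = 0.000241), a call that was lost without the libraries raised in acinar or muscle markers, which leaves 4 T4 and 3 T3 livers (-1.90, adjusted p = 0.350). Among animals 54 to 85, 5 T4 and 6 T3 livers, it was kept (-1.79, adjusted p = 0.0327). Muscle markers were raised in 4 T4 and 3 T3 livers, and their part in the result was not tested. T3+T4 against T4 livers, where 8.61% of genes were called and 3 of the 4 members, again had Dio1 as the gene with the smallest p (2.44 ± 0.25, 5.42-fold higher in T3+T4 livers, adjusted p = 1.68e-06). T4 against control livers, with 3.54% of genes called, had Dio1 first as well, 4.91-fold lower in T4 livers (-2.30 ± 0.26, adjusted p = 2.21e-05). No other member passed there, and among animals 54 to 85 the Dio1 call was lost with 1 control liver left (-1.93, adjusted p = 0.510).

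No member passed in the 4 remaining comparisons. Between T3+T4 and T3 livers 0.0117% of genes were called, and Dio1 differed by 0.47 on the log2 scale (95% interval -0.05 to 0.98) with 0 members at an unadjusted p under 0.05. Between T3 and control livers 0.211% of genes were called, with Dio1 at -0.32 (-0.88 to 0.24) and again 0 members at an unadjusted p under 0.05. Between T3+T4 and control livers edgeR called 0% of the genes, 1226 genes had an unadjusted p under 0.05 and DESeq2 called 50. There, Dio1 differed by 0.14 (-0.40 to 0.68), and 1 member, Dio3, had an unadjusted p under 0.05. DESeq2 called 0 of the members in each of these comparisons and gave none of them an adjusted p between T3+T4 and control livers. The interaction, which asks whether T3 acts differently in the presence of T4, called 0.135% of genes and 0 of the 4 members by edgeR or DESeq2. Dio1 had the lowest value there, at -0.97 ± 0.40 (unadjusted p = 0.0219, adjusted p = 0.387). On the log2 scale, adding T3 raised Dio1 by 3.41 over vehicle and by 2.44 over T4.

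**Figure D2:**
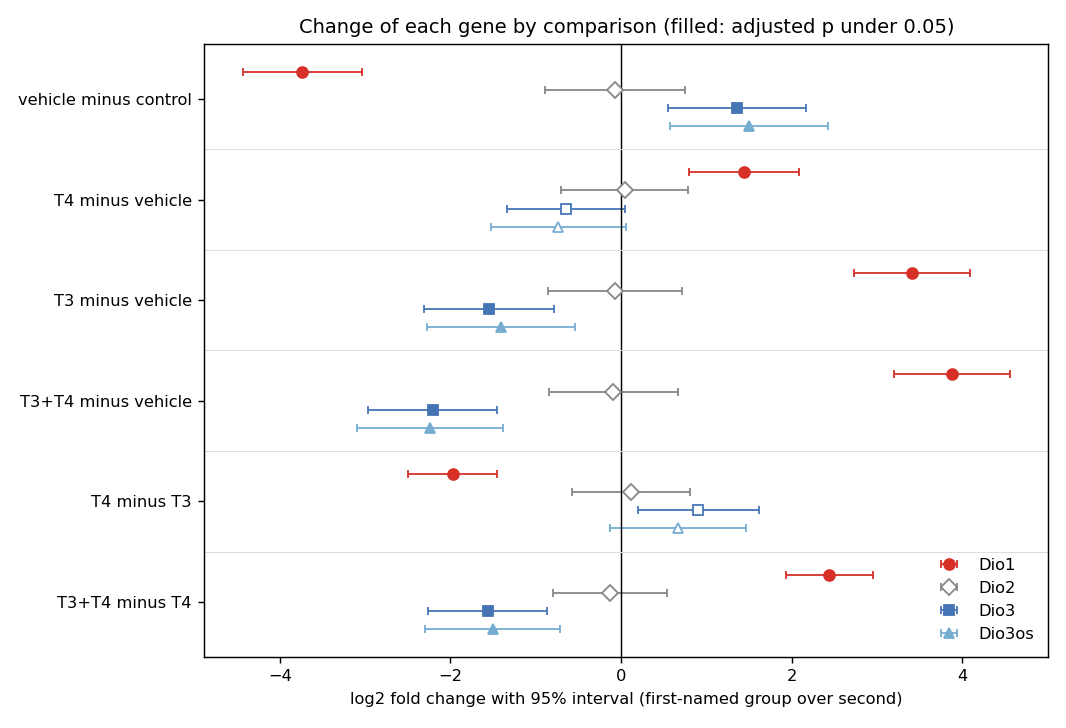
Log2 fold change of Dio1, Dio2, Dio3 and Dio3os with 95% intervals in 6 comparisons, the first-named group over the second; filled symbols passed at an adjusted p under 0.05 over 17057 genes. Dio1 ran from -3.74 in vehicle against control to 3.88 in T3+T4 against vehicle, Dio3 and Dio3os had the opposite sign to Dio1 in each of the 6 comparisons, and every interval of Dio2 crossed 0.

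Dio2 did not pass in any comparison. This gene, whose enzyme makes T3 inside cells from T4, was at the edge of detection, with deposited counts of 12 to 26 in T3+T4, 6 to 47 in T4, 12 to 28 in T3, 4 to 26 in vehicle and 12 to 22 in control livers. Its mean level was 2.85 ± 0.80 CPM in T3+T4, 3.09 ± 2.26 in T4, 2.86 ± 0.78 in T3, 3.06 ± 1.73 in vehicle and 3.19 ± 0.59 in control livers, and all groups overlapped. Per length, the 5 group means were 0.463 to 0.517 CPM per exonic kilobase, with the added 1 taken off. The difference of T4 from vehicle livers was 0.04 with an interval of -0.70 to 0.78. That of vehicle from control livers was -0.08 with an interval of -0.90 to 0.75. Changes within those intervals were not excluded. T4 animal 54 was highest for Dio2, at 47 counts. Gm26512, annotated across the Dio2 start on the opposite strand, held 15 reads in all libraries together.

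Dio3, which inactivates T4 and T3, moved against Dio1. The deposited counts of Dio3 were 4 at the lowest, 24 at the median and 33 at the highest in T3+T4 livers, 25, 41 and 99 in T4 livers, and 13, 27 and 54 in T3 livers. The 5 vehicle livers held 88, 90, 45, 64 and 91 counts, and the 5 control livers held 29, 49, 15, 17 and 43. These are low counts. On the CPM scale no vehicle liver overlapped with the control, T3 or T3+T4 livers, and only T4 livers reached into the vehicle range. The share of all genes with such a separation was not counted, here or for Dio1 and Dio3os. Dio3 averaged 3.12 ± 1.51 CPM in T3+T4, 9.34 ± 4.59 in T4, 4.98 ± 2.31 in T3, 14.6 ± 3.74 in vehicle and 5.64 ± 2.53 in control livers. As a share of the control mean this was 55.2% in T3+T4, 165.5% in T4, 88.3% in T3 and 258.4% in vehicle livers. Per length Dio3 and Dio1 came closest to each other in vehicle livers, at 7.09 ± 1.85 CPM per exonic kilobase for Dio3 and 6.36 ± 2.24 for Dio1. In control livers the same quantity was 2.69 ± 1.25 for Dio3 and 85.7 ± 16.1 for Dio1.

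Against control, Dio3 was 2.57-fold higher in vehicle livers (1.36 ± 0.40, adjusted p = 0.0278). Leaving out any 1 of vehicle animals 38 and 2019 or of control animals 42, 49 and 50 ended the call (1.20 to 1.54 over all libraries left out, with adjusted p reaching 0.0865), as did testing with no filter on low counts (adjusted p = 0.0577) or without libraries raised in acinar or muscle markers (1.39, adjusted p = 0.119). Among animals 54 to 85 the difference was 0.36 with 1 control liver left. Against vehicle, Dio3 was 2.92-fold lower in T3 livers (-1.55 ± 0.37, adjusted p = 0.0123) and 4.62-fold lower in T3+T4 livers (-2.21 ± 0.37, adjusted p = 0.000162). The hepatocyte markers were also lower in T3 and T3+T4 than in vehicle livers, by the smaller amounts given above, and their part in these results and in those of Dio3os was not tested. Leaving out each library in turn ended neither call. The T3 call was lost among animals 54 to 85 (-1.08, adjusted p = 0.327) and without the marker-raised libraries (-1.71, adjusted p = 0.206), and the T3+T4 call held in every setting (-2.55 to -1.74). With T4 alone the difference of Dio3 from vehicle was -0.64 ± 0.34 (adjusted p = 0.441), with an interval of -1.33 to 0.05. Dio3 was also 2.96-fold lower in T3+T4 than in T4 livers (-1.57 ± 0.34, adjusted p = 0.00502; -1.78, adjusted p = 0.148 without the marker-raised libraries). T4 and T3 livers differed by 0.90 ± 0.35, with an interval of 0.20 to 1.61 (edgeR unadjusted p = 0.0139, adjusted p = 0.228). For Dio3 a difference between the hormones thus did not pass after adjustment over all genes.

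Dio3os followed Dio3 at a higher count. Its deposited counts were 11 at the lowest, 80 at the median and 179 at the highest in T3+T4 livers, 61, 164.5 and 346 in T4 livers, and 42, 112 and 196 in T3 livers. The 5 vehicle livers held 297, 303, 178, 320 and 323 counts, and the 5 control livers held 127, 183, 55, 47 and 112. On the CPM scale all vehicle livers lay above all control and T3+T4 livers, while T3 animal 62 (37.9 CPM) lay just above vehicle animal 55 (37.8 CPM). Group means were 11.4 ± 7.60 CPM in T3+T4, 32.9 ± 16.3 in T4, 20.7 ± 11.0 in T3, 54.7 ± 9.94 in vehicle and 19.2 ± 8.99 in control livers. The corresponding shares of the control mean were 59.6% in T3+T4, 171.2% in T4, 108% in T3 and 285.1% in vehicle livers.

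Dio3os was 2.83-fold higher in vehicle than in control livers (1.50 ± 0.45, adjusted p = 0.0338), a call that ended without any 1 of vehicle animals 38, 67 and 2019 or control animals 49, 50 and 59 (adjusted p reaching 0.0990) and without the marker-raised libraries (1.68, adjusted p = 0.0786). It was 4.73-fold lower in T3+T4 than in vehicle livers (-2.24 ± 0.42, adjusted p = 0.000537), in every setting. In T3 livers it was 2.65-fold lower than in vehicle (-1.41 ± 0.42, adjusted p = 0.0412), a call that did not hold without T3 animal 60, 61, 65 or 68 or without any 1 of the 5 vehicle animals (adjusted p reaching 0.0892), nor without the marker-raised libraries (-1.34, adjusted p = 0.331). With T4 the difference from vehicle was -0.74 ± 0.39 (adjusted p = 0.441). Dio3os was lower in T3+T4 than in T4 livers (-1.51 ± 0.39, adjusted p = 0.0143), although animals of the groups overlapped. That call was lost among animals 54 to 85 (-1.23, adjusted p = 0.132) and without the marker-raised libraries (-2.21, adjusted p = 0.0977). Mir1247, annotated within Dio3os on the same strand, held 15 reads in all libraries together.

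No difference between groups was shown in the proportion of Dio3os to Dio3. The ratio of their deposited counts had a median of 3.33 in T3+T4, 3.58 in T4, 4.42 in T3, 3.55 in vehicle and 3.67 in control livers, and single livers ran from 2.18 in a T4 liver to 6.32 in a T3 liver. The log2 ratio was compared by 5 exact two-sided permutation tests, none of which passed. Vehicle minus control was 0.18 (p = 0.357), T4 minus vehicle -0.14 (p = 0.476), T3 minus vehicle 0.09 (p = 0.736), T3+T4 minus vehicle -0.19 (p = 0.331) and T4 minus T3 -0.23 (p = 0.344), by exact permutation, with adjusted p of at least 0.594. With 5 livers against 5 the smallest p such a test can give is 0.00794.

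Within the T3+T4 and T4 groups the 2 transcripts also went together from liver to liver. The counted exons of Dio3os are not known, and a part of shared reads in this and in the ratio was not tested. Apart from Dio1 with Dio3, no other pair of genes was measured within groups. Across the 7 T3+T4 livers, Pearson's r of log2 CPM was 0.968 (exact permutation p = 0.000198, adjusted 0.00119 over 6 relations) and Spearman's rho was 1.0 (exact p = 0.000397), and r was 0.910 without the 2 livers farthest from the median of Dio3. Across the 8 T4 livers r was 0.891 (exact permutation p = 0.00273, adjusted 0.00819), rho was 0.857 (exact p = 0.0107), and r was 0.863 without the 2 farthest livers. Across the 6 T3 livers r was 0.783 (exact permutation p = 0.0639), rho was 0.771 (exact p = 0.103) and r was 0.925 without the 2 farthest. Dio1 and Dio3 gave r of -0.608 in T3+T4, -0.653 in T4 and -0.345 in T3 livers (exact permutation p = 0.168, 0.0824 and 0.528) and rho of -0.571, -0.548 and -0.257 (exact p = 0.200, 0.171 and 0.658), none of which passed. Without the 2 livers farthest from the median of Dio1, r was -0.236 in T3+T4, 0.006 in T4 and -0.222 in T3 livers. Leaving out such livers also narrows the range of Dio1, so these values cannot show what the first ones rested on.

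**Figure D3:**
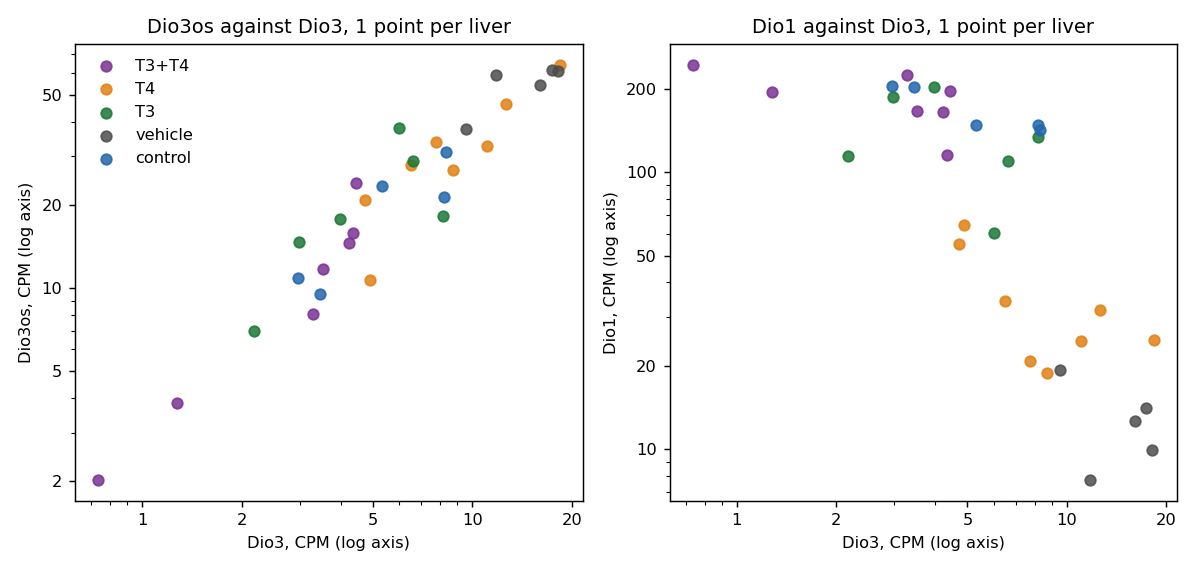
Dio3os against Dio3 (left) and Dio1 against Dio3 (right), in CPM on log axes, 1 point per liver, coloured by T3+T4, T4, T3, vehicle and control. Dio3os and Dio3 rise together through all groups, while the T4 livers lie below the T3, T3+T4 and control livers in Dio1, apart from T4 animal 54 (64.5 CPM) and T3 animal 62 (60.2 CPM), at Dio3 levels that overlap with theirs.

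Other genes with the pattern of a member over all 31 livers were listed by Pearson's r of log2 CPM among 11687 tested genes averaging at least 5 CPM, with no test, since all values share the same libraries and groups. For Dio1 these were Slc22a27 (r = 0.942), Slc25a45 (0.936), Rfk (0.932), Esr1 (0.922) and Nt5e (0.921). Rfk encodes riboflavin kinase, Esr1 the estrogen receptor alpha and Nt5e a nucleotidase of the cell surface. Nt5e averaged 211 ± 17.9 CPM in T3+T4, 150 ± 25.1 in T4, 209 ± 31.8 in T3, 85.0 ± 9.23 in vehicle and 244 ± 14.6 in control livers. For Dio3 they were Serpina7 (0.857), Hyal2 (0.853), Enpp3 (0.851), Rassf3 (0.848) and Abcc3 (0.842), and for Dio3os they were Ppm1k (0.891), Serpina7 (0.881), Enpp3 (0.863), Hyal2 (0.860) and Krt23 (0.857). Serpina7, which encodes thyroxine-binding globulin, the plasma carrier of T4, averaged 144 ± 59.7 CPM in T3+T4, 297 ± 37.4 in T4, 211 ± 53.6 in T3, 393 ± 55.7 in vehicle and 161 ± 57.3 in control livers. Between members, the same measure was 0.949 for Dio3 with Dio3os, -0.795 for Dio1 with Dio3 and -0.768 for Dio1 with Dio3os, across groups and thus also a description.

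The Dlk1-Dio3 domain on chromosome 12, at whose end Dio3 lies, carries Dlk1, a paternally expressed membrane protein of immature cells, and the maternally expressed non-coding genes Meg3, Rian and Mirg. Of 8 listed genes of the domain and its flanks, 6 were tested, since Begain and Rtl1 did not pass the filter. In vehicle against control livers, where 9.63% of all genes were called, 4 of the 6 rose and none fell. Their median log2 fold change was 1.45, beside 0.01 over all genes tested. Dlk1 averaged 58.1 ± 15.7 CPM in vehicle and 5.58 ± 3.17 in control livers (3.36 ± 0.44, adjusted p = 1.06e-05). Meg3 averaged 92.6 ± 11.6 CPM in vehicle and 30.4 ± 15.5 in control livers (1.61 ± 0.31, adjusted p = 0.00131). Rian (1.29 ± 0.34) and Mirg (1.86 ± 0.40) rose as well, while the flanking genes Ppp2r5c (0.20 ± 0.07) and Dync1h1 (0.09 ± 0.11) did not pass. By edgeR, 5 of the 6 genes had an unadjusted p under 0.05, so a flanking gene was among them.

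Domain genes were lower than in vehicle livers with T3+T4, and 1 of them with T3. Their values under the alternative settings are not given here. In T3+T4 against vehicle livers the same 4 domain genes fell (median of the 6 genes -1.06, beside -0.003 over all genes), with Dlk1 at -0.99 ± 0.34, Meg3 at -1.62 ± 0.28, Rian at -1.13 ± 0.30 and Mirg at -1.16 ± 0.34. In T3 against vehicle livers 1 of the 6 fell, Meg3 (-1.01 ± 0.28, adjusted p = 0.0287). In T4 against vehicle livers edgeR called 0 of the 6, with 0 at an unadjusted p under 0.05 and 0 by DESeq2. Beside these counts, 15.8% of all genes were called with T3+T4 against vehicle, 6.77% with T3 and 0.410% with T4. Dlk1 averaged 29.3 ± 10.9 CPM in T3+T4, 57.5 ± 25.1 in T4 and 33.5 ± 12.5 in T3 livers, each above the 5.58 ± 3.17 CPM of control livers, while the Dio3 means of T3+T4 and T3 livers lay at or under the control mean. Against control, Dlk1 stood 3.34 ± 0.42 higher in T4 and 2.56 ± 0.43 higher in T3 livers on the log2 scale (adjusted p = 4.06e-05 and 0.00593), and at 2.37 ± 0.42 in T3+T4 livers (adjusted p = 0.0714). For Dio3 the same 3 differences were 0.72 ± 0.37, -0.19 ± 0.39 and -0.85 ± 0.39, none of which passed. Whether Dlk1 and Dio3 differ in these changes was not tested.

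**Figure D4:**
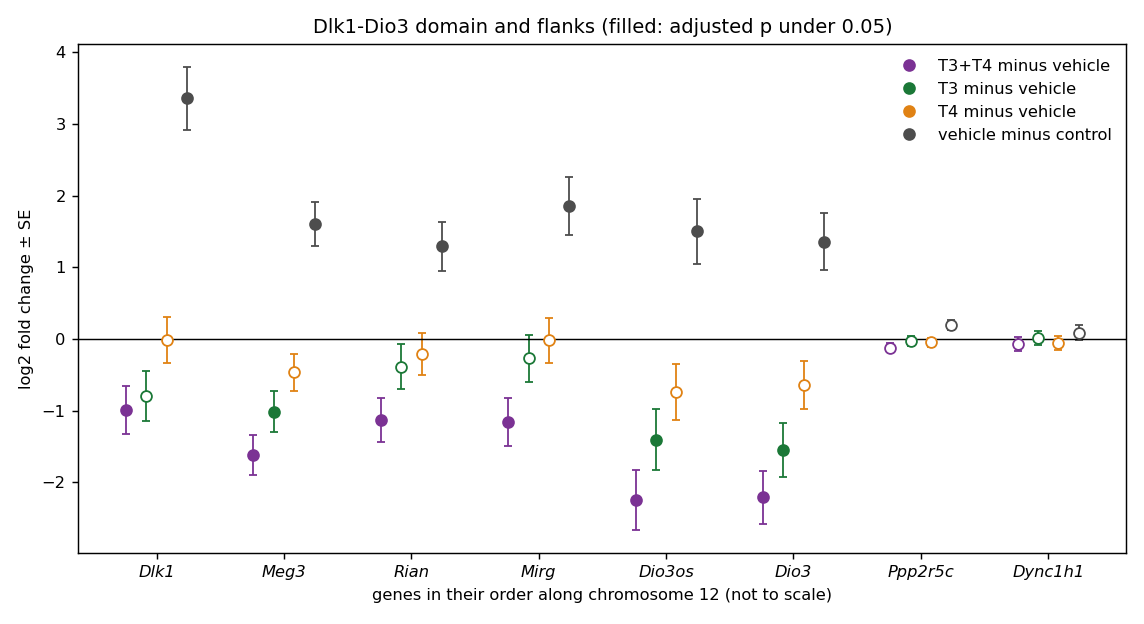
Log2 fold change ± SE of genes of the Dlk1-Dio3 domain and its flanks, in their order on chromosome 12, for T3+T4, T3 and T4 against vehicle and for vehicle against control; filled symbols passed at an adjusted p under 0.05. Dlk1, Meg3, Rian, Mirg, Dio3os and Dio3 were all higher in vehicle than in control livers and lower in T3+T4 than in vehicle livers, and the flanking Ppp2r5c and Dync1h1 passed in neither.

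Deiodinases carry selenocysteine, so the genes that build selenoproteins were counted. Of 10 such genes, all tested, 1 fell in vehicle against control livers, a share close to the 9.63% of all genes called there. It was Sepsecs, which encodes the enzyme that forms selenocysteine on its tRNA. Sepsecs averaged 280 ± 18.8 CPM in T3+T4, 231 ± 14.9 in T4, 258 ± 27.8 in T3, 193 ± 10.8 in vehicle and 292 ± 8.68 in control livers. It was lower in vehicle than in control livers (-0.60 ± 0.07, adjusted p = 9.87e-07). It was higher than in vehicle livers with T4 (0.26 ± 0.06, adjusted p = 0.0454), with T3 (0.42 ± 0.06, adjusted p = 0.000171) and with T3+T4 (0.54 ± 0.06, adjusted p = 1.03e-06). Scly, a selenocysteine lyase (-0.29 ± 0.10), Eefsec, the elongation factor for selenocysteine (0.21 ± 0.10), and Pstk, a kinase of its tRNA (-0.15 ± 0.12), did not pass between vehicle and control livers. No other gene of the 10 was called with T4 or with T3, beside 0.410% and 6.77% of all genes. In T3+T4 against vehicle livers, where 15.8% of all genes were called, 1 of the 10 rose and 1 fell. The gene that fell was Sephs2, a selenophosphate synthetase (-0.24 ± 0.07, adjusted p = 0.0126), named after its value was seen. Of 11 other selenoproteins of liver, among them the glutathione peroxidases Gpx1 and Gpx4, 0 passed in vehicle against control, T4 against vehicle and T3 against vehicle livers by edgeR or DESeq2, with 2, 0 and 1 at an unadjusted p under 0.05. In T3+T4 against vehicle livers, beside 15.8% of all genes, 1 of the 11 was called and fell. It was the plasma selenoprotein Selenop (-0.26 ± 0.07, adjusted p = 0.00953), also named after its value was seen.

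Genes of hormone uptake, binding, receptors and conjugation numbered 18, all tested. In vehicle against control livers, where 9.63% of all genes were called, 3 of the 18 rose and 2 fell, with a list median of 0.01, equal at that precision to the median of all genes. Thra, a nuclear T3 receptor (0.37 ± 0.07, adjusted p = 0.00123), Slco1a1, an organic anion transporter (1.99 ± 0.38, adjusted p = 0.00125), and Serpina7 (1.29 ± 0.26, adjusted p = 0.00236) rose, and the solute carrier Slc17a4, named after its value was seen, was among those that fell (-0.68 ± 0.17, adjusted p = 0.0108). In T4 against vehicle livers edgeR and DESeq2 called 0 of the 18, with 3 at an unadjusted p under 0.05. Of all genes, 0.410% were called with T4 against vehicle, 6.77% with T3 and 15.8% with T3+T4. In T3 against vehicle livers 2 rose, Slc16a10 (1.38 ± 0.35) and the amino acid transporter Slc7a5 (0.69 ± 0.19), and 4 fell, Thra (-0.37 ± 0.07), Slco1a1 (-1.18 ± 0.34), Serpina7 (-0.89 ± 0.25) and the organic anion transporter Slco1b2 (-0.25 ± 0.06). In T3+T4 against vehicle livers 1 rose and 4 fell, which were Thra (-0.34 ± 0.07), Slco1a1 (-2.04 ± 0.34), Serpina7 (-1.45 ± 0.24) and Slco1b2 (-0.23 ± 0.06). Slc16a10, Slc7a5 and Slco1b2 were named after their values were seen. The only gene of the list called between T4 and T3 livers was Slc16a10, a T3 and amino acid transporter, lower in T4 livers (-1.49 ± 0.30, adjusted p = 0.0142). Of all genes, 0.551% were called there.

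Genes within 500 kilobases of the deiodinase genes were counted beside the 9.63% of all genes called in vehicle against control, 6.77% in T3 against vehicle and 15.8% in T3+T4 against vehicle livers. Of 30 near Dio1, 13 were tested and 1 passed in vehicle against control livers, Yipf1 (-0.26 ± 0.07, adjusted p = 0.0121), which was higher than in vehicle livers with T3 (0.31 ± 0.06) and with T3+T4 (0.31 ± 0.06). In T3 against vehicle livers Ssbp3 fell beside it (-0.44 ± 0.10), and in T3+T4 against vehicle livers Cyb5rl (0.25 ± 0.09, adjusted p = 0.0473) and Acot11 (0.71 ± 0.25, adjusted p = 0.0494) rose beside it, which makes 2 and 3 of the 13. The median of these 13 was -0.07 in vehicle against control livers. Of 8 near Dio2, 2 were tested, Cep128 and Nrxn3, and neither passed between vehicle and control livers, by edgeR or DESeq2, with 1 at an unadjusted p under 0.05. In T3+T4 against vehicle livers both passed, Cep128 higher (0.63 ± 0.21, adjusted p = 0.0406) and Nrxn3 lower (-0.67 ± 0.23, adjusted p = 0.0450). Of 8 near Dio3, 4 were tested and 1 passed, Hsp90aa1, a heat shock chaperone that was lower in vehicle livers (-0.52 ± 0.10, adjusted p = 0.00189), the opposite sign to Dio3. It was higher than in vehicle livers with T3 (0.33 ± 0.10, adjusted p = 0.0410) and with T3+T4 (0.48 ± 0.10, adjusted p = 0.00118). Ssbp3, Cyb5rl and Acot11 were named after their values were seen. Hsp90aa1 averaged 183 ± 17.8 CPM in T3+T4, 151 ± 17.5 in T4, 165 ± 18.7 in T3, 131 ± 15.9 in vehicle and 188 ± 25.0 in control livers.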

How the data were processed

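RNA of 31 livers was sequenced from poly(A) libraries of a stranded kit, per the labels' protocols. The authors deposited 1 table of whole-number counts per gene, not normalized as far as the values show, in which the lowest value is 1 and 50.1% of values are 1, so 1 had been added to each count. The submitters' processing notes list BWA 0.7.10, Trimmomatic, DESeq and bcl2fastq, without their roles, and name the human build GRCh38, whereas the deposited column names give mm10. The counting tool, its use of strand and its annotation are not given in the sources used here. Of the gene IDs, 97.3% are in GENCODE M21.

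The members and gene lists were chosen with earlier results of these data known. Counts as deposited were scaled by TMM, filtered with filterByExpr and tested with edgeR 4.0.16 (R 4.3.3; glmQLFit and glmQLFTest), with 5 group means over all libraries and Benjamini-Hochberg adjustment over 17057 genes at 0.05. CPM values use TMM-scaled totals. Named from each list were the genes with the smallest adjusted p in vehicle against control, up to 4; 1 such gene is not reported here. Log2 CPM used a prior count of 2. Exact permutation tests used scipy 1.17.1. Promoter windows came from RefSeq (GRCm38.p6), matched by symbol for all 4 genes. The fits were tested on simulated counts. Alternatives were median-of-ratios factors, library totals, no filter, a mean of at least 5 CPM, compared groups only, DESeq2 1.42.0, covariates for sex and for library total, animals 54 to 85, 1 taken off each count, no libraries with raised acinar or muscle markers (a mean of at least 5 CPM), each library left out, and a correction for a ceiling of 2 counts per exonic base. Sex is not labelled for every pup. The sex covariate was therefore set from expression of Xist against Y-linked genes, which made 15 libraries female. All columns of the table were matched to samples by the labels. Counting error limits low counts such as those of Dio2.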

Additional observations from a re-analysis of the deposited data

Results flagged for a closer look

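Dio2 in T4 animal 54 was 8.21 CPM, and its gap to the next liver was 0.604 of the range of the 8 T4 livers, beyond the 95% limit for a single stray value. It was the only such value in 20 sets of 5 to 8 livers, 1 set for each gene in each group, and chance gives about 1 in 20. The same animal had the highest Dio1 of the T4 livers, at 64.5 CPM.

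Ssbp3, a neighbour of Dio1 named after its value was seen, was the 1 neighbour for which the effect of T3 differed between pups with and without T4. Its effect of T3 in the presence of T4 minus that in its absence was 0.60 ± 0.12 (edgeR interaction, adjusted p = 0.0354), and T3 against vehicle was -0.44 ± 0.10.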

How the results depend on the processing

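Apart from leaving out libraries, 12 settings were run, 1 of them added after seeing the data, and DESeq2 gave the members no adjusted p between T3+T4 and control livers. Of 513 values of the members, 479 kept direction and side of the threshold, 24 lost their call and 10 changed sign. Without each library in turn, 1291 of 1364 values were kept, 27 lost their call and 46 changed sign. Counts of called genes over all settings ran from 3 to 2076 in vehicle against control (1642 as reported), 2 to 235 in T4 against vehicle (70), 39 to 1570 in T3 against vehicle (1155), 737 to 3136 in T3+T4 against vehicle (2692), 1 to 342 in T4 against T3 (94), 39 to 1738 in T3+T4 against T4 (1469), 0 to 155 in T3+T4 against T3 (2), 0 to 1024 in T4 against control (604), 0 to 338 in T3 against control (36), 0 to 50 in T3+T4 against control (0) and 0 to 109 in the interaction (23). No setting moved the median of all genes by over 0.1 on the log2 scale. The cause of these shifts was not tested, and the smaller sets also held fewer livers.

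Calls of Dio3 and Dio3os between vehicle and control were lost with no filter (1.33 and 1.47), without marker-raised libraries (1.39 and 1.68) and among animals 54 to 85 (0.36 and 1.16), where Dio1 was -3.49. Dio1 between T4 and vehicle was lost with no filter (1.45), compared groups only (1.44), animals 54 to 85 (1.56) and without marker-raised libraries (1.46), which also ended Dio1 between T4 and T3 (-1.90). Between T3 and vehicle, Dio3os was lost with no filter (-1.36), compared groups only (-1.40), the sex covariate (-1.40), the library total covariate (-1.58), animals 54 to 85 (-1.22) and without marker-raised libraries (-1.34), and Dio3 in the last pair of settings (-1.08 and -1.71).

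Sign changes concerned differences that no setting called. Without marker-raised libraries Dio2 was 0.083 in vehicle against control, -0.24 in T4 against vehicle, 0.23 in T3+T4 against T4, 0.49 in T3+T4 against T3, 0.075 in T3+T4 against control and 0.73 in the interaction, and with no filter 0.0052 in T3+T4 against T3. Dio3os in T3 against control was -0.057 among animals 54 to 85 and -0.021 with the library total covariate, and the Dio3 interaction was 0.0048 with no filter. The ratio in T3 against vehicle was -0.14 among animals 54 to 85, and r of Dio1 with Dio3 in T4 livers was 0.0060 without the 2 livers farthest from the median of Dio1.

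Ranges without each library in turn were 1.25 to 1.63 for Dio1 in T4 against vehicle, 1.20 to 1.54 for Dio3 and 1.33 to 1.75 for Dio3os in vehicle against control, and -1.65 to -1.23 for Dio3os in T3 against vehicle. Dio2 ranged from -0.39 to 0.18 in vehicle against control, -0.35 to 0.35 in T4 against vehicle, -0.33 to 0.24 in T3 against vehicle, -0.35 to 0.22 in T3+T4 against vehicle, -0.28 to 0.27 in T4 against T3, -0.24 to 0.26 in T3+T4 against T4, -0.10 to 0.13 in T3+T4 against T3, -0.43 to 0.077 in T4 against control and -0.37 to 0.33 in the interaction. The interaction ranged from -0.17 to 0.19 for Dio3 and -0.41 to 0.15 for Dio3os, Dio3os in T3 against control from -0.16 to 0.34, and the ratio in T3 against vehicle from -0.040 to 0.26.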
